A study of Mus musculus with 2 samples.

Results

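Thbs1 and 9 genes of transforming growth factor beta (TGF-beta) signalling were followed across the cell types of fibrotic mouse liver. These 10 genes were chosen by symbol from the 55357 genes that the count matrices list, and every one of them was found in both matrices. They are the ligand genes Tgfb1, Tgfb2 and Tgfb3, the activators Thbs1, Itgav and Itgb8, the receptor genes Tgfbr1, Tgfbr2 and Tgfbr3, and the inhibitor Smad7. Liver cells were profiled by droplet single-cell RNA sequencing in 2 groups with 1 library each. Both groups were exposed to carbon tetrachloride (CCl4), a hepatotoxin used to scar the liver, and one of them also to indole propionic acid (IPA), a tryptophan metabolite of gut bacteria; they are called the CCl4-only library and the CCl4+IPA library. The title of the study names IPA, fibrosis of the liver and a profibrogenic phenotype of macrophages. Strain, sex, age, dose, schedule and the number of animals are not given in the sources used here, and no untreated liver was analysed here.

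TGF-beta is secreted in a latent form, in which the mature ligand is held by its own propeptide and often tethered to the matrix or to a cell surface. Thrombospondin-1, an extracellular glycoprotein, and integrins that contain the alpha v subunit can release it, after which the type II receptor binds the ligand, recruits the type I receptor, and Smad proteins carry the signal to the nucleus. In liver the pathway is best known for turning stellate cells into matrix-producing myofibroblasts and for restraining T cells.

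The CCl4-only library contained 45009730 unique molecular identifiers (UMIs, counts of captured RNA molecules) in 10427 barcodes, and the CCl4+IPA library 37983923 in 10471 barcodes. After filtering, 9915 and 10043 cells were analysed, and their clusters were named from marker genes, with "-like" for each named class. Median depth, here and below CCl4-only first, was 2783.5 and 2337 UMIs for B cell-like and 7259 and 5946.5 UMIs for monocyte-like cells. The median mitochondrial share of UMIs was 4.38% and 2.12% in the former and 2.88% and 1.36% in the latter. It was lower in the CCl4+IPA library in every named class with 50 or more cells in both libraries. The part of this difference in the ratios below was not tested. The libraries shared 23 barcodes, 20 of them among the analysed cells. Unnamed clusters held 6.86% of the CCl4 cells and 1.22% of the IPA cells. A level is given as counts per 1000000 (CPM), the UMIs of a gene per 1000000 UMIs of its class. A ratio is the IPA level over the CCl4 level, and brackets hold 95% exact intervals. With 1 library per group there is no replicate error and no test, so intervals cover counting error only and a difference between the libraries cannot be told apart from a difference between single preparations. UMIs were counted from the 3′ end of transcripts and not per length, so levels are compared between classes and libraries and not between genes.

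The promoters of Tgfb1 and Tgfb2 are shown because these ligand genes had the widest and the narrowest spread over cell classes in the measurements that follow. RefSeq promoters of GRCm38.p6 were in the reference table for 6 of the 10 genes, and Thbs1, Tgfb3, Tgfbr3 and Smad7 were not among them. Each line holds the 250 bases before the start site, 5′ to 3′ on the gene's strand, at chr7:25686752-25687001 (+) for Tgfb1 and at chr1:186705990-186706239 (-) for Tgfb2. Capitals mark GGGCGG, the GC box, on either strand, and TATAAA, the TATA box.
Tgfb1: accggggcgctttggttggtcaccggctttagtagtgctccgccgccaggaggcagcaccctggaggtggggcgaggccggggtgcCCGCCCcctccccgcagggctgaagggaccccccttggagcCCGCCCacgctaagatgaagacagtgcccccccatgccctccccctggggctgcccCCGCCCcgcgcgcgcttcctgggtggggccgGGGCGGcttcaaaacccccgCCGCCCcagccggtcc
Tgfb2: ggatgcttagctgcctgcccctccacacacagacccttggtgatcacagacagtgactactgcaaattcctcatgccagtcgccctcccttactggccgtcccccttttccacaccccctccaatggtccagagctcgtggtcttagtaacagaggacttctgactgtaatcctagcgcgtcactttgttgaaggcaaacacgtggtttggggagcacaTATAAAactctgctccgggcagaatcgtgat
The Tgfb1 stretch was 75.2% G and C and held 5 GC boxes, the nearest beginning 16 bases before the start, and no TATAAA. The Tgfb2 stretch was 53.6% G and C, with TATAAA beginning 31 bases and an E-box, CACGTG, beginning 51 bases before the start, and no GC box. Over 32851 promoters of the same length the median G and C content was 52.4%; GGGCGG was in 32.7%, TATAAA in 12.4% and CACGTG in 6.02%. Both strands were also searched for TGANTCA (an AP-1 site, in 6.75% of all promoters), TGACGTCA (a cyclic AMP response element, 1.55%) and GTCTAGAC (a Smad box, 0.167%), and neither stretch held one. No match overlapped a match of another motif. A match of letters is a description of the sequence and not a measured binding site.

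Tgfb1, the ligand gene most tied to fibrosis and immune restraint, was measured in every one of the 13 classes that had 50 or more cells in both libraries. It was highest in monocyte-like cells, at 342 CPM (313 to 373, 515 UMIs in 213 cells) in the CCl4-only library and 420.1 CPM (384 to 459, 491 UMIs in 196 cells) in the CCl4+IPA library. The monocyte-like interval lay above that of the next of these 13 classes in both libraries, while 10 of 12 neighbouring pairs in the CCl4 order and 8 of 12 in the IPA order had overlapping intervals. In the CCl4-only library several dendritic and lymphoid classes lay close together, with 198 CPM in plasmacytoid dendritic cell (pDC)-like, 196 in conventional dendritic cell-like, 172 in natural killer (NK) or ILC1-like and 168 in B cell-like cells. T cell-like cells were lower, at 99.7 CPM (93.1 to 107), an interval clear of those 4. Plasma cell-like cells, at 25.2 and 28.9 CPM, and mesothelial cell-like cells, at 27.4 and 38.1 CPM, were at the low end. Macrophage-like cells, outside the 13 for their 22 IPA cells, had 302 CPM (246 to 366, 102 UMIs) in the CCl4-only library, which overlapped the monocyte-like interval. Stellate or fibroblast-like cells of the CCl4-only library, the matrix-producing class, were also low for this ligand, at 10.4 CPM. The single cluster of that class scored 4.83 for its own marker list and 3.8 for the smooth muscle list. The smooth muscle marker Tagln was among its top genes, so contractile cells may be part of it.

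Between the libraries the Tgfb1 ratios of the 13 classes ran from 0.943 in neutrophil-like cells to 1.57 in conventional dendritic cell-like cells. In monocyte-like cells the ratio was 1.23 (1.08 to 1.39), and its log2 value of 0.30 came to 0.12 once the median log2 ratio of all genes in that class, 0.17, was subtracted. Conventional dendritic cell-like cells had 196 CPM (182 to 210.4) in the CCl4-only library and 308.5 CPM (272 to 348) in the CCl4+IPA library, with the ratio between 1.36 and 1.82 by its interval and a log2 ratio of 0.66, or 0.45 after the class median. Both clusters of that class had this direction, with ratios of 1.54 (1.29 to 1.84) and 1.59 (1.25 to 2.03). Through their number B cell-like cells made up 30.2% of the Tgfb1 UMIs of the CCl4-only library and 29.2% of the CCl4+IPA library, more than any other class. Monocyte-like cells, 2.15% and 1.95% of cells, gave 8.27% and 7.90% of Tgfb1 UMIs. Such shares follow from how many cells of each class were captured as well as from the level in each cell.

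Among these 13 classes Tgfb2 was measured mainly in mesothelial cell-like cells, named for the cells that line the liver capsule and peritoneum. They held 193 Tgfb2 UMIs in 67 CCl4 cells, 151 CPM (130.3 to 174), and 207 UMIs in 89 IPA cells, 146 CPM (127 to 167). The levels overlapped, with a ratio of 0.969 (0.792 to 1.19), and 82.1% and 79.8% of the cells had a UMI. Of their clusters, s3 (led by Prg4) had 56.4 and 117 CPM, a ratio of 2.08 (1.17 to 3.81), and the ratios of the other two had intervals that include 1. Cluster s3 also held T cell RNA, with Cd3d, Cd3e and Cd3g at 375 CPM in sum, against 29.8 in s0 and 5.6 in s1. Of the 13 classes 12 held 3 Tgfb2 UMIs or fewer in the CCl4-only library, and 11 did in the CCl4+IPA library. The 46 stellate or fibroblast-like cells of the CCl4-only library, a class with too few IPA cells (7) for the order, held 181 Tgfb2 UMIs, or 210.0 CPM, of which 29.8% came from 1 cell. Mesothelial cell-like cells gave 45.0% of the Tgfb2 UMIs of the CCl4-only library and 86.2% of those of the CCl4+IPA library, while the stellate class gave 42.2% in the CCl4-only library. An unnamed cluster led by Spp1, Clu and Alb (s6, 11 cells in each library) is in none of these classes. It held 42 and 12 Tgfb2 UMIs, or 103 and 100.1 CPM.

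Tgfb3, the ligand gene of mesenchymal tissues, followed the same classes. Mesothelial cell-like cells had 83.6 CPM (107 UMIs) in the CCl4-only library and 94.6 CPM (134 UMIs) in the CCl4+IPA library, a ratio of 1.13 (0.871 to 1.47), and stellate or fibroblast-like cells of the CCl4-only library had 101 CPM. No other of the 13 classes reached 50 CPM. B cell-like cells had 5.37 and 5.87 CPM but, through their number, 17.9% and 19.5% of all Tgfb3 UMIs. The mesothelial shares were 31.9% and 54.5%.

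**Figure D1:**
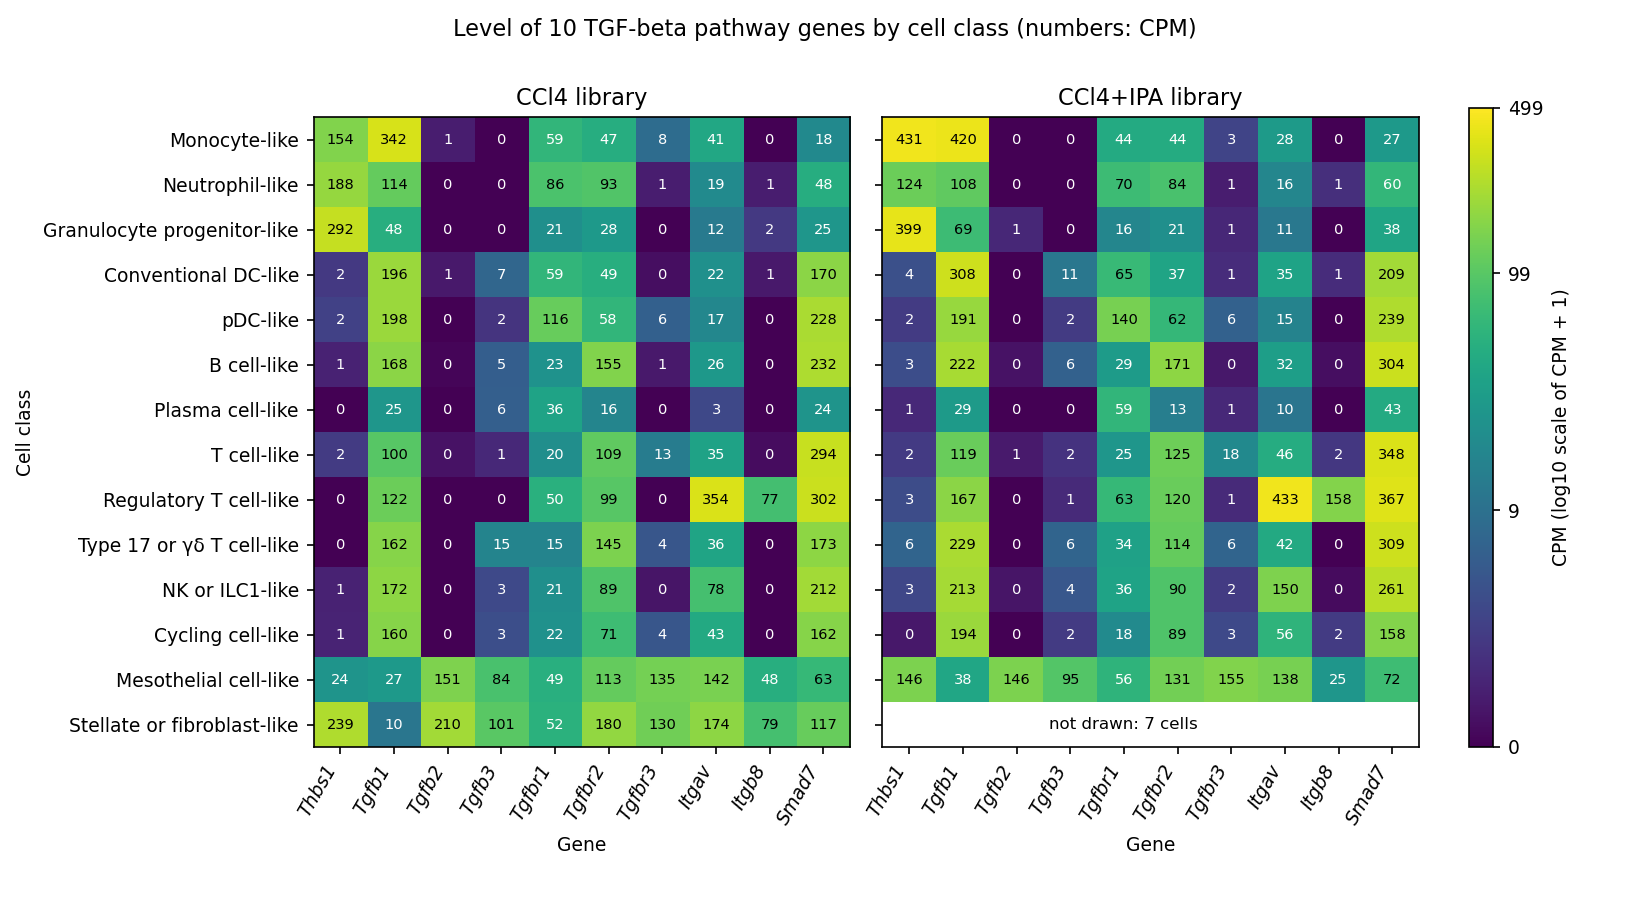
Level of each of the 10 genes (columns, CPM, colour on a log10 scale of CPM + 1) in each cell class (rows), with the CCl4-only library on the left and the CCl4+IPA library on the right. Tgfb1 fills most rows, Tgfb2 and Tgfb3 mainly the mesothelial and stellate rows, Itgb8 the regulatory T cell, mesothelial and stellate rows, and Thbs1 the monocyte, granulocytic, mesothelial and stellate rows; the stellate row of the CCl4+IPA library, with 7 cells, is not drawn.

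Thbs1, the gene of thrombospondin-1, was found in myeloid and mesenchymal classes. In the CCl4-only library granulocyte progenitor-like cells, a cluster led by Camp, Ngp and Ltf, gave 27.8% of its UMIs, neutrophil-like cells 24.1%, monocyte-like cells 19.6% and stellate or fibroblast-like cells 17.4%. The first name follows the marker list with the best score, 7.04 against 4.74 for the neutrophil list. Of Elane, Mpo and Prtn3 only Elane was among the cluster's top 10 genes, beside the neutrophil markers S100a8, S100a9, Mmp8 and Retnlg. The granulocyte progenitor-like cells may therefore be immature neutrophils rather than progenitors. In the CCl4+IPA library monocyte-like cells gave 34.8%, granulocyte progenitor-like cells 27.1% and mesothelial cell-like cells 14.3%, with neutrophil-like cells next. The remaining 9 of the 13 classes were at or under 6.35 CPM in both libraries. The whole libraries held 1253 and 1644 Thbs1 UMIs.

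Monocyte-like cells had 154 CPM of Thbs1 (135.0 to 175, 232 UMIs in 213 cells) in the CCl4-only library and 431 CPM (394 to 471, 504 UMIs in 196 cells) in the CCl4+IPA library. The intervals did not overlap. The ratio was 2.80 (2.39 to 3.28), a log2 ratio of 1.48, or 1.31 after the median of all genes in the class was subtracted. The difference was in the number of cells with a UMI as well: 50 of 213 (23.5%) against 85 of 196 (43.4%). With every cell thinned to 1000 UMIs these shares were 11.1% (7.14 to 16.1, 23 of 208 cells) and 21.6% (16.0 to 28.1, 41 of 190 cells). Free RNA was not measured; in B cell-like and T cell-like cells, taken as classes that should hold little Thbs1, the thinned shares were 0.0271% and 0.222% in the former and 0.0960% and 0.240% in the latter, at median depths before thinning of 2783.5 and 2337 UMIs in B cell-like and 3850 and 3075 UMIs in T cell-like cells. The cell with most Thbs1 held 7.33% of the class's UMIs in the CCl4-only library and 8.33% in the CCl4+IPA library.

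In the larger of the monocyte-like clusters, led by Lyz2, F13a1 and Chil3, Thbs1 was at 166 CPM in 160 CCl4 cells and 445 CPM in 179 IPA cells, a ratio of 2.68 (2.28 to 3.16). The other, with the nonclassical markers Ace, Ear2 and Treml4, had only 17 IPA cells. All 7 markers of the monocyte list were present in both libraries, summing to 5275 and 7384 CPM. Platelets are rich in thrombospondin-1, and 5 of the 6 platelet or megakaryocyte markers (Ppbp, Gp9, Itga2b, Gp1bb and Treml1) were at 0 in the monocyte-like cells of both libraries, with the list summing to 0.665 CPM in the CCl4-only library and 0 in the CCl4+IPA library. The 6 neutrophil markers summed to 1012 CPM and 666 CPM. A list of 10 immediate early genes (Fos, Jun, Egr1 and others, which are known to respond to tissue dissociation) summed to 19370 and 23430 CPM. The part of the neutrophil markers and of the immediate early genes in the result was not tested.

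Of the 10 genes, 6 had at least 20 UMIs over both libraries in monocyte-like cells, and 2 of them, Thbs1 and Smad7, were past 1.5-fold higher in the CCl4+IPA library and none lower. Over all 8089 genes measured in that class 16.9% were past 1.5-fold higher and 5.44% lower. The Smad7 value rested on 27 and 32 UMIs, with an interval of 0.886 to 2.65 that includes 1. The median log2 ratio of the 6 genes was 0.12, beside 0.17 over all genes.

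Mesothelial cell-like cells held the largest Thbs1 ratio among those 13 classes with at least 20 UMIs of the gene. They had 24.2 CPM (16.5 to 34.4, 31 UMIs) in the CCl4-only library and 146 CPM (127 to 167, 207 UMIs) in the CCl4+IPA library, a ratio of 6.03 (4.12 to 9.11) and a log2 ratio of 2.59. The gene was seen in 15 of 67 cells (22.4%) and 36 of 89 cells (40.4%). At 1000 UMIs per cell the shares were 4.62% (3 of 65) and 10.5% (9 of 86), with intervals that overlap (0.962 to 12.9 and 4.90 to 18.9). One cell held 25.8% of the UMIs in the CCl4-only library and 13.5% in the CCl4+IPA library. With each cell weighed the same, the log2 ratio was 1.39.

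The 3 mesothelial clusters had the same direction. Thbs1 was at 42.5 and 184 CPM in the first (s0, led by Saa3 and Gpc3), a ratio of 4.34 (2.40 to 8.61). It was at 9.34 and 135 CPM in the second (s1, led by Rarres2 and Igfbp5, with Msln), a ratio of 14.5 (6.26 to 41.0), and at 36.7 and 73.8 CPM in the third (s3, led by Prg4), a ratio of 2.01 whose interval (0.970 to 4.35) includes 1. The immediate early genes moved with Thbs1 in this class, from 7382 to 22990 CPM in sum over the 10 genes, and in each cluster (9309 to 27060, 5456 to 18300 and 9337 to 20340 CPM). Their part in the Thbs1 difference was not tested. All 6 mesothelial markers were present, at 4272 and 4303 CPM in sum, as were 5 of 6 platelet markers at 59.4 and 57.9 CPM, and 6 of 7 stellate or fibroblast markers at 5387 and 6150 CPM.

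All 10 genes were measured in mesothelial cell-like cells, where 1 of them, Thbs1, was past 1.5-fold higher in the CCl4+IPA library and 1, Itgb8, past 1.5-fold lower. Over the 10190 genes measured in the class 14.4% were past 1.5-fold higher and 9.54% lower. The median log2 ratio of the 10 genes was 0.19, beside 0.05 over all genes.

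Granulocytic cells split into 2 named classes with opposite ratios of Thbs1. Granulocyte progenitor-like cells had 292 CPM (261 to 325, 328 UMIs in 172 cells) in the CCl4-only library and 399 CPM (360.4 to 440.4, 393 UMIs in 166 cells) in the CCl4+IPA library, a ratio of 1.37 (1.18 to 1.59). Neutrophil-like cells had 188 CPM (167 to 211, 284 UMIs in 678 cells) and 124 CPM (107 to 143, 188 UMIs in 896 cells), a ratio of 0.659 (0.545 to 0.795). The neutrophil direction was not stable to how the classes were drawn, and neither direction remained with the 2 classes joined. Taken as 1 class, the cells held 612 and 581 Thbs1 UMIs and the log2 ratio was -0.00, against 0.45 and -0.60 apart. With a marker gate on each cell the neutrophil value was 0.28. Kept doublets gave -0.25, and clustering each library alone, which put the cells together in the CCl4-only library (612 UMIs) and apart in the CCl4+IPA library (185 UMIs), gave -0.96. A further cluster, led by Mpo, Ctsg, Prtn3 and Elane with cycling genes (m6), was left unnamed and is in neither class. Its Thbs1 was at 13.4 CPM (14 UMIs in 64 cells) in the CCl4-only library. In the CCl4+IPA library it was at 83.9 CPM (60 UMIs in 52 cells), a ratio of 6.25 (3.45 to 12.1).

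Among 6 measured genes in neutrophil-like cells, Thbs1 was the 1 past 1.5-fold lower and none was higher, where 7.27% of 6963 genes were lower and 12.3% higher. Among 6 in granulocyte progenitor-like cells, Smad7 was the 1 past 1.5-fold higher, at 24.9 and 37.6 CPM, with an interval of its ratio that includes 1 (0.898 to 2.56), and none was lower. Of 6257 genes in that class 25.5% were higher and 4.7% lower.

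The mesenchymal and macrophage classes could be described mainly in the CCl4-only library. Stellate or fibroblast-like cells had 239 CPM of Thbs1 (207.5 to 274, 206 UMIs in 46 cells), with a UMI in 41.3% of cells, but the class had 7 cells and 2 Thbs1 UMIs in the CCl4+IPA library, and no ratio was read. Macrophage-like cells numbered 163 and 22 and held 11 and 14 Thbs1 UMIs, all 14 of the latter in 1 cell. Endothelial cell-like cells, 19 and 11 in number, held 0 and 7 UMIs. B cell-like cells had 9 and 27 Thbs1 UMIs, 0.805 and 3.30 CPM, a ratio of 4.10 (1.87 to 9.91). Thbs1 was the 1 of 7 measured genes past 1.5-fold higher there and none was lower, where 17.4% of 12293 genes were higher and 3.12% lower. T cell-like cells, with 17 and 16 Thbs1 UMIs, had a ratio of 0.940 (0.444 to 1.98). Most B cell-like cells of the 2 libraries lay in different clusters (c1 and c3 for CCl4, c4 and c5 for IPA).

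**Figure D2:**
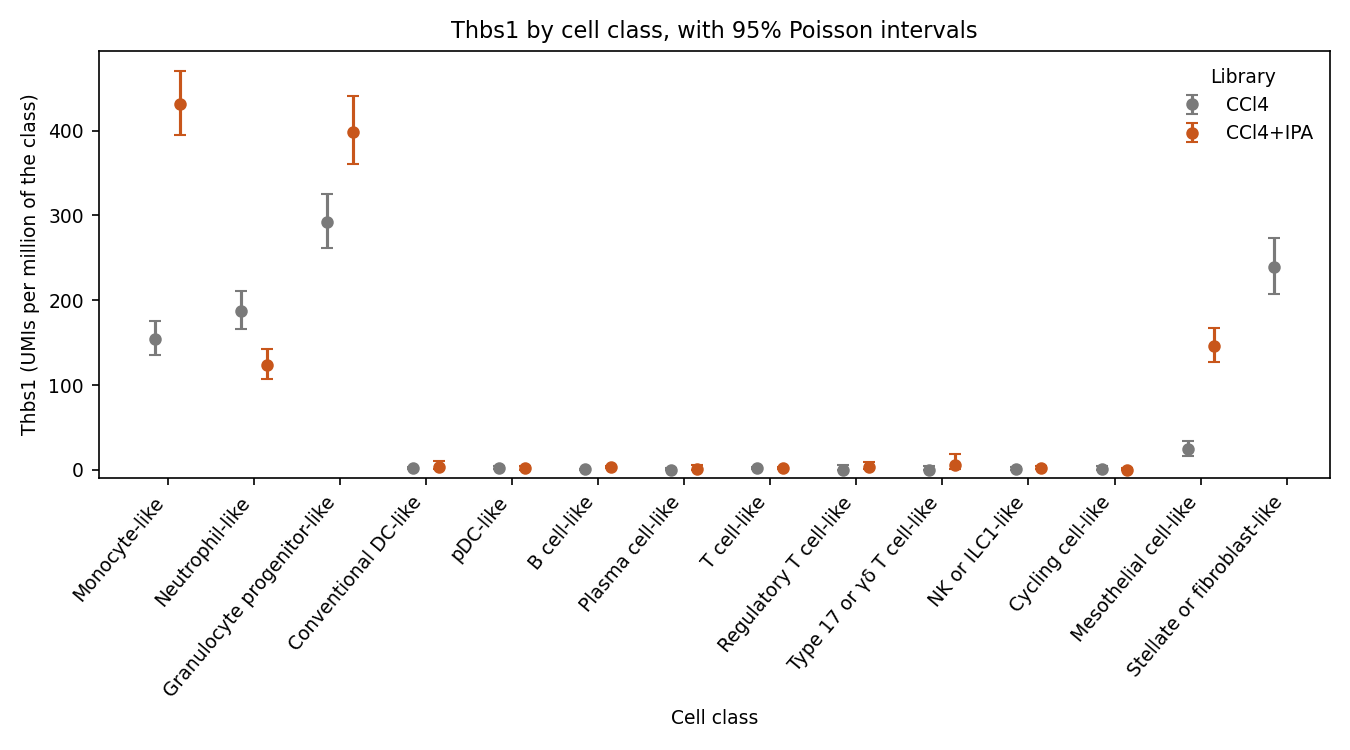
Thbs1 level (CPM, linear axis) by cell class, with grey points for the CCl4-only library, orange points for the CCl4+IPA library and bars for 95% Poisson intervals of counting error. Monocyte-like cells stand at 154 and 431 CPM and mesothelial cell-like cells at 24.2 and 146, neutrophil-like cells are lower in the CCl4+IPA library, and the lymphoid and dendritic classes lie near 0.

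Itgav encodes the alpha v subunit that several activating integrins share. It was highest in regulatory T cell-like cells, at 354 CPM (308 to 405, 211 UMIs in 141 cells) in the CCl4-only library and 433 CPM (391 to 477.5, 397 UMIs in 309 cells) in the CCl4+IPA library. That ratio, 1.22 (1.03 to 1.45), was 0.01 in log2 after the median of all genes in the class, 0.28, was subtracted. Mesothelial cell-like cells followed in the CCl4-only library at 142 CPM and had 138 CPM in the CCl4+IPA library, and stellate or fibroblast-like cells of the CCl4-only library had 174 CPM. T cell-like cells outside the regulatory class were at 35.2 and 45.7 CPM.

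NK or ILC1-like cells had 78.2 CPM of Itgav (67.4 to 90.2, 188 UMIs in 600 cells) in the CCl4-only library and 149.8 CPM (139 to 161, 704 UMIs in 1340 cells) in the CCl4+IPA library. The ratio was 1.92 (1.63 to 2.26), with a log2 ratio of 0.94, or 0.70 after the class median. Both clusters of the class had this direction: in the one led by Xcl1 and Klrb1b (c7) Itgav was at 120.3 and 199 CPM, a ratio of 1.66 (1.38 to 1.99), and in the one led by Klra4 and Gzma (c9) at 32.1 and 48.6 CPM, a ratio of 1.51 (1.01 to 2.30). The cluster with more Itgav made up 246 of 600 cells in the CCl4-only library and 796 of 1340 in the CCl4+IPA library, and the ratio of the whole class was above that of either cluster. NK or ILC1-like cells gave 10.6% of all Itgav UMIs in the CCl4-only library and 31.0% in the CCl4+IPA library.

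Of 6 measured genes in NK or ILC1-like cells 3 were past 1.5-fold higher and none lower. They were Itgav, Tgfbr1 and Tgfb3, the last on 7 and 21 UMIs with an interval that includes 1 (0.629 to 4.28). Of 10802 genes measured in the class 18.8% were higher and 2.54% lower. The median log2 ratio was 0.46 over the 6 genes and 0.24 over all genes.

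Itgb8 encodes beta 8, which pairs with alpha v to bind latent TGF-beta. Regulatory T cell-like cells had 77.2 CPM (56.5 to 103, 46 UMIs in 141 cells) in the CCl4-only library and 158 CPM (133 to 186, 145 UMIs in 309 cells) in the CCl4+IPA library, and the intervals did not overlap. The ratio was 2.05 (1.46 to 2.92), with a log2 ratio of 1.03, or 0.75 after the class median. Cells with a UMI were 29 of 141 (20.6%) and 89 of 309 (28.8%), and at 1000 UMIs per cell 5.80% (2.54 to 11.1, 8 of 138) and 13.8% (10.0 to 18.4, 39 of 282). B cell-like cells held 0 Itgb8 UMIs in 3740 CCl4 cells, which allows up to 3, and 2 UMIs in 3286 IPA cells. T cell-like cells were at 0.231 and 1.73 CPM.

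Different clusters held most of the regulatory T cell-like cells of the 2 libraries, and a cluster that is mostly of 1 library may reflect that library. The CCl4 value came from 1 cluster (t4, 129 CCl4 cells and 9 IPA cells), with 75.8 CPM of Itgb8 in its CCl4 cells. The IPA value came from clusters t0 (154 IPA and 7 CCl4 cells), at 192 CPM, and t1 (146 IPA and 5 CCl4 cells), at 109.5 CPM in their IPA cells. These rest on 42 UMIs in the CCl4 cells of t4, and on 91 and 46 UMIs in the IPA cells of t0 and t1. Within clusters the ratio was 1.635 (0.542 to 8.08) in t0 and 1.753 (0.299 to 70.7) in t1, both intervals including 1. In t4 it was 4.34 (1.76 to 9.35), on 8 UMIs in the CCl4+IPA library. All 5 regulatory T cell markers were present in both libraries, summing to 5315 and 7281 CPM. The immediate early genes summed to 14640 and 17600 CPM, and the part of either in the Itgb8 difference was not tested. Among 6 measured genes Itgb8 was the 1 past 1.5-fold higher and none was lower, where 28.0% of 7637 genes in the class were higher and 4.71% lower.

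In mesothelial cell-like cells Itgb8 went the other way, with 47.7 CPM (36.5 to 61.2, 61 UMIs in 67 cells) in the CCl4-only library and 25.4 CPM (17.8 to 35.2, 36 UMIs in 89 cells) in the CCl4+IPA library. The ratio was 0.533 (0.343 to 0.818). All 3 clusters were lower in the CCl4+IPA library, with the interval clear of 1 in s1 (54.5 and 21.0 CPM, 0.385, 0.163 to 0.817). T cell markers, 6 of 6 present, moved with it in this class, from 280.5 to 116 CPM in sum, and the 5 regulatory T cell markers from 102 to 62.8 CPM. By cluster, with both libraries together, the T cell genes Cd3d, Cd3e and Cd3g summed to 375 CPM in s3, 29.8 in s0 and 5.6 in s1. The part of the T cell markers in the Itgb8 difference was not tested. Stellate or fibroblast-like cells of the CCl4-only library had 78.9 CPM, of which 44.1% came from 1 cell. Regulatory T cell-like cells gave 20.7% (15.6 to 26.7) of all Itgb8 UMIs in the CCl4-only library and 64.4% (57.8 to 70.7) in the CCl4+IPA library, where they were 1.42% and 3.08% of cells. The unnamed cluster s6, with 11 cells in each library, also held Itgb8. Its level was 95.9 CPM (39 UMIs) in the CCl4-only library and 158.5 CPM (19 UMIs) in the CCl4+IPA library.

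**Figure D3:**
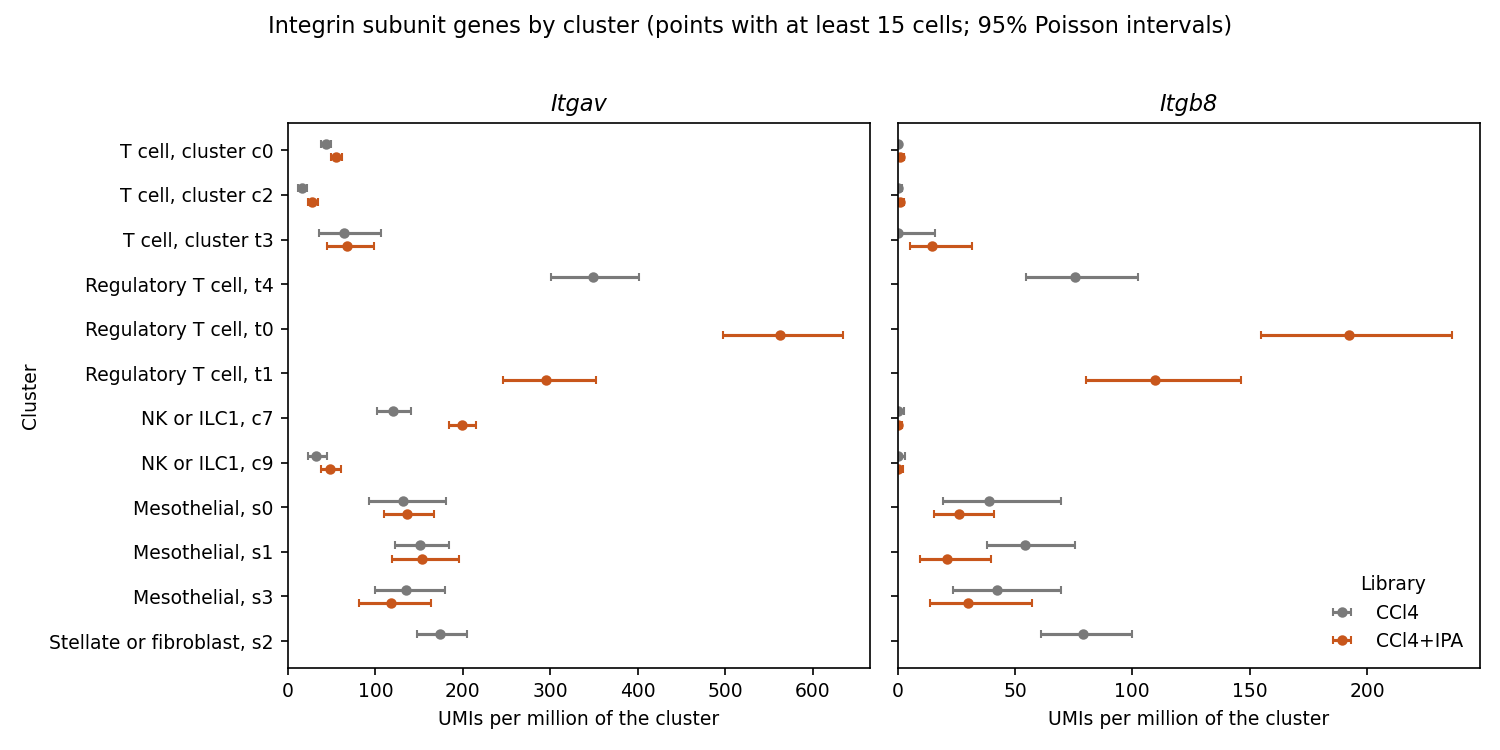
Itgav (left) and Itgb8 (right) levels (CPM, linear axes) in the clusters of the T cell, regulatory T cell, NK or ILC1, mesothelial and stellate classes, grey for the CCl4-only library and orange for the CCl4+IPA library, with 95% Poisson intervals and only points of at least 15 cells. Itgb8 is at 75.8 CPM in the CCl4 cells of regulatory cluster t4 and at 192 and 109.5 CPM in the IPA cells of t0 and t1, while the mesothelial clusters lie lower in the CCl4+IPA library.

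Tgfbr1, the type I receptor whose kinase phosphorylates Smad proteins, was highest in pDC-like cells, at 116 CPM (103 to 130, 300 UMIs in 389 cells) in the CCl4-only library and 140.3 CPM (124 to 157.5, 285 UMIs in 353 cells) in the CCl4+IPA library, a ratio of 1.21 (1.03 to 1.43). Here too the libraries filled different clusters of the class, and in the largest cluster alone, with 20 UMIs in the CCl4+IPA library, the log2 ratio was 0.92, against 0.28 in the class. Neutrophil-like cells had 86.0 and 69.8 CPM, conventional dendritic cell-like cells 59.1 and 65.0 CPM and monocyte-like cells 59.2 and 43.6 CPM, with ratio intervals that include 1. Within monocyte-like cells Tgfbr1 was at 45.5 and 34.6 CPM in the cluster led by Lyz2 and at 157 and 280.4 CPM (29 and 12 UMIs) in the nonclassical-type cluster. Macrophage-like cells of the CCl4-only library, left out of the order for the 22 cells in the other library, had 159.8 CPM (120.0 to 208.5, 54 UMIs). Of these UMIs 44 were in the 33 cells of 1 cluster (m10, with Trem2), at 232 CPM. The other cluster (m5, with Clec4f and Cd5l) had 130 cells in that library, at a median depth of 966.5 UMIs. NK or ILC1-like cells had 21.2 CPM (51 UMIs) and 36.2 CPM (170 UMIs), a ratio of 1.71 (1.24 to 2.38), and plasma cell-like cells 35.8 and 58.9 CPM, a ratio of 1.65 (1.11 to 2.45).

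Tgfbr2, the ligand-binding type II receptor, had the flattest order, with overlapping intervals in 12 of 12 neighbouring pairs in the CCl4-only library and 11 of 12 in the CCl4+IPA library. B cell-like cells were at 155 and 171 CPM, type 17 or gamma delta T cell-like cells at 145 and 114, mesothelial cell-like cells at 113 and 131, and T cell-like cells at 109 and 125. Conventional dendritic cell-like cells (48.6 and 36.7 CPM), monocyte-like cells (46.5 and 44.5), granulocyte progenitor-like cells (27.6 and 21.3) and plasma cell-like cells (16.1 and 13.4) were the lowest. Stellate or fibroblast-like cells of the CCl4-only library had 179.8 CPM (153 to 210.5). None of the 13 classes was past 1.5-fold in either direction for this gene. B cell-like and T cell-like cells together held most of its UMIs, 41.2% and 22.5% in the CCl4-only library and 36.0% and 27.9% in the CCl4+IPA library.

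Tgfbr3 encodes betaglycan, a co-receptor that presents ligand, TGF-beta 2 above all, to the signalling receptors. Its highest classes were those of Tgfb2. Mesothelial cell-like cells had 135 CPM (173 UMIs) in the CCl4-only library and 155 CPM (219 UMIs) in the CCl4+IPA library, a ratio of 1.14 (0.932 to 1.40), and stellate or fibroblast-like cells of the CCl4-only library had 130.0 CPM. Unlike Tgfb2 it was also present in T cell-like cells, at 12.6 and 18.3 CPM, a ratio of 1.45 (1.13 to 1.87). Within them it was at 26.5 and 38.1 CPM in the cluster led by Dapl1, Lef1 and Tcf7 (c2, naive-type) and at 5.78 and 5.82 CPM in the cluster led by Ccl5 and Cd8a (c0). T cell-like cells gave 24.0% and 36.8% of its UMIs and mesothelial cell-like cells 38.0% and 51.1%.

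Smad7, an inhibitory Smad that TGF-beta itself induces, was highest in lymphoid classes, namely regulatory T cell-like cells (302 and 367 CPM) and T cell-like cells (294 and 348 CPM). Monocyte-like cells, the highest class for Tgfb1, were the lowest for Smad7 in both libraries, at 18.0 CPM (11.8 to 26.1, 27 UMIs) and 27.4 CPM (18.7 to 38.6, 32 UMIs). Granulocyte progenitor-like cells (24.9 and 37.6 CPM) and plasma cell-like cells (23.8 and 43.4 CPM) had intervals that overlapped these. B cell-like cells were at 232 and 304.5 CPM (a log2 ratio of 0.39, but -0.48 in their largest cluster, with 17 UMIs in the CCl4+IPA library), NK or ILC1-like cells at 212 and 261 CPM, and mesothelial cell-like cells at 63.3 and 72.0 CPM.

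The largest Smad7 ratio with an interval clear of 1 and at least 100 UMIs in each library was in type 17 or gamma delta T cell-like cells, at 173 CPM (143.5 to 206, 123 UMIs) and 309 CPM (261 to 363, 146 UMIs). That ratio was 1.79 (1.40 to 2.29), with a log2 ratio of 0.84, or 0.66 after the class median of 0.18. On fewer UMIs, larger ratios clear of 1 were 1.82 (1.13 to 2.95, 34 and 42 UMIs) in plasma cell-like cells and 3.47 (1.31 to 10.1, 7 and 14 UMIs) in basophil or mast cell-like cells. In T cell-like cells the ratio of 1.19 (1.12 to 1.25) was 0.25 in log2, -0.04 after the class median of 0.28 was subtracted, and -0.10 without that subtraction when each library was clustered alone. None of the 8 measured genes was past 1.5-fold in T cell-like cells in either direction, where 18.2% of 12485 genes were higher and 3.2% lower. The median log2 ratio of those 8 genes was 0.28, the same as over all genes.

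**Figure D4:**
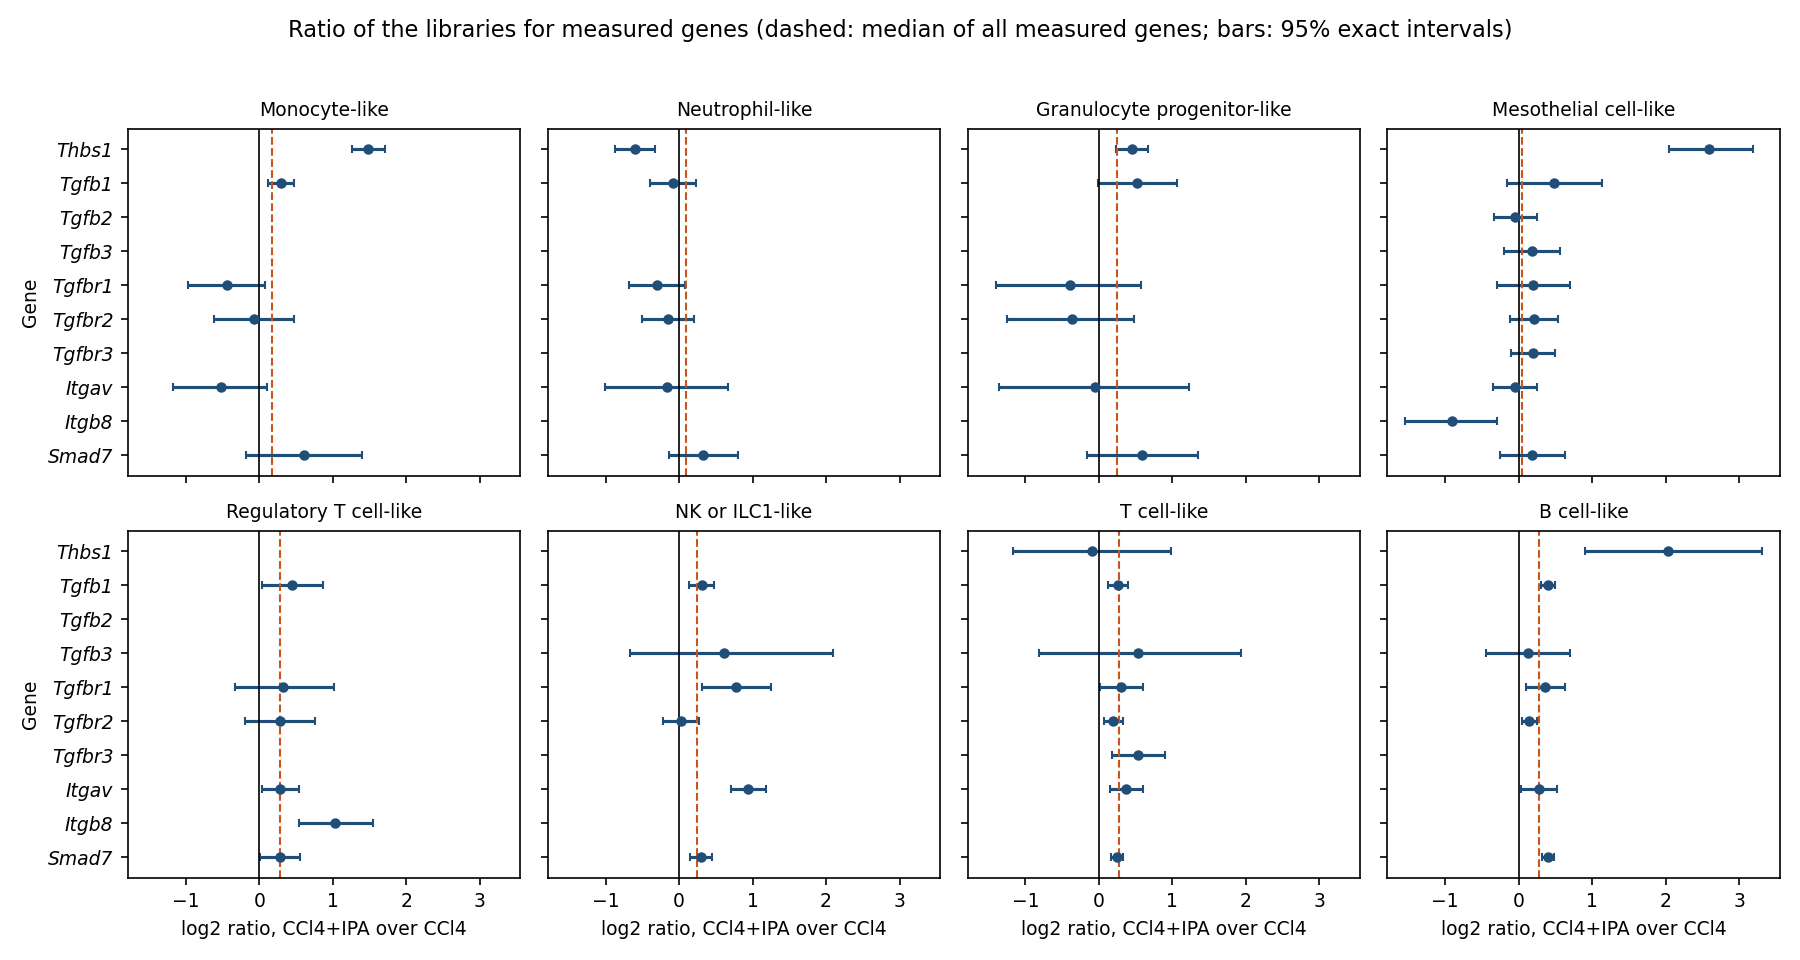
log2 ratio of the CCl4+IPA library over the CCl4-only library for each gene with at least 20 UMIs, in 8 cell classes, with bars for 95% exact intervals of counting error and a dashed line at the median of all measured genes. Thbs1 in monocyte-like (1.48) and mesothelial cell-like cells (2.59), Itgb8 in regulatory T cell-like cells (1.03) and Itgav in NK or ILC1-like cells (0.94) lie to the right of the dashed line with their intervals, and Itgb8 in mesothelial cell-like cells (-0.91) and Thbs1 in neutrophil-like cells (-0.60) to the left. Others to the right include Thbs1 in B cell-like cells (2.04, on 9 and 27 UMIs) and Tgfbr1 in NK or ILC1-like cells (0.77).

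The 7 lists of pathway genes were read by the same size rule, at least 20 UMIs over both libraries and a ratio past 1.5-fold. The lists are not separate, since the target genes include Smad7, which is also 1 of the 10 genes. Skil and Pmepa1 stand among both the inhibitors and the target genes and are counted in each. In mesothelial cell-like cells 14.4% of all genes were higher by that rule and 9.54% lower. There 6 of 12 measured target genes were higher in the CCl4+IPA library and 1 lower, with a median log2 ratio of 0.49 beside 0.05 over all genes. Ccn2, a matricellular growth factor of fibrosis, had 6 and 21 UMIs, a ratio of 3.16 (1.23 to 9.57), and Junb, an AP-1 subunit that belongs to the early response as well, stood at 767 and 1568 CPM. Ctla4, a T cell checkpoint receptor, was lower at 49 and 8 UMIs, beside the T cell markers that were lower in this class. Among the 10 inhibitors 3 were higher and 1 lower, with Smurf2, a ubiquitin ligase of the pathway, at 2.37 (1.46 to 3.97) and Skil, a repressor of Smad target genes, at 1.83 (1.47 to 2.29).

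Of 7 measured latency and processing genes in mesothelial cell-like cells 2 were higher and 1 lower. Ltbp2, of the latent TGF-beta binding protein family, was lower at 62 and 30 UMIs, a ratio of 0.437 (0.273 to 0.686), and Furin, a protease that cleaves the precursor, was higher at 1.75 (1.21 to 2.56). The other receptors of the family gave 0 of 8 past 1.5-fold. Of 8 transducers and 4 other activators 1 each was higher. The thrombospondin-1 receptors and partners gave 0 of 7 higher and 2 lower, Itga4 at 0.632 (0.416 to 0.954) and Cd36, a thrombospondin receptor, at 0.661 (0.398 to 1.09).

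In regulatory T cell-like cells 28.0% of all genes were past 1.5-fold higher and 4.71% lower. Of 3 measured latency genes 2 were higher and 1 lower. Lrrc32, one of those higher, encodes GARP, which docks latent TGF-beta on the surface of these cells and hands it to the integrin that Itgav and Itgb8 form. It had 26 UMIs (43.7 CPM) in the CCl4-only library and 92 UMIs (100.3 CPM) in the CCl4+IPA library, a ratio of 2.30 (1.47 to 3.70). Nrros, which encodes another protein that tethers latent TGF-beta, was at 1.62 with an interval that includes 1 (0.852 to 3.27), while Furin was lower at 0.659 (0.463 to 0.938). Of 8 inhibitors 5 were higher and none lower, with a median log2 ratio of 0.64 beside 0.28 over all genes, among them the phosphatase Ppm1a at 1.88 (1.27 to 2.82) and the corepressor Tgif1 at 1.72 (1.40 to 2.11). Of 9 target genes 2 were higher, a share below that of all genes (Junb, 1.72, and Skil, 1.51), and of 7 transducers 3, with Smad5 on 3 and 31 UMIs at 6.71 (2.09 to 34.3). None of 5 thrombospondin-1 partners was past 1.5-fold.

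In monocyte-like cells, where 16.9% of all genes were past 1.5-fold higher and 5.44% lower, 2 of 8 target genes were higher, Id1, an inhibitor of DNA-binding factors that bone morphogenetic proteins also induce, at 215 and 320 UMIs with a ratio of 1.92 (1.61 to 2.29), and Smad7. Of 8 inhibitors 2 were higher and 1 lower, the latter Smurf2 at 0.605 (0.381 to 0.940), and of 7 transducers 1, Smad5, was higher at 2.57 (1.20 to 5.88). Of 3 other activators 0 were higher and 1 lower (Itgb5, 0.663), and of 5 thrombospondin-1 partners 0 were higher and 1 lower (Cd36, on 17 and 7 UMIs). Neither of 2 latency genes was past 1.5-fold, and of 6 receptors 2 were higher with intervals that include 1.

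In the remaining classes the counts stand beside all-gene shares past 1.5-fold higher of 18.8% in NK or ILC1-like, 18.2% in T cell-like, 17.4% in B cell-like and 12.3% in neutrophil-like cells. NK or ILC1-like cells had 4 of 5 receptors of the family higher (median 0.80 beside 0.24), led by Bambi, a decoy receptor, at 2.28 (1.53 to 3.48), and 5 of 11 target genes higher, among them Rgs16 at 1.68. In T cell-like cells 4 of 7 receptors were higher (median 0.81 beside 0.28). Of 12 target genes 3 were higher, a share near that of all genes, namely Ctla4 at 1.74 (1.60 to 1.90), Itgae, the alpha E integrin of tissue-resident T cells, at 1.61 (1.29 to 2.02) and Pmepa1 at 1.52. In B cell-like cells 4 of 10 target genes were higher, with Pmepa1, a feedback inhibitor, at 2.48 (1.77 to 3.52). In neutrophil-like cells 1 of 3 other activators, Itgb1, was lower at 0.563 (0.398 to 0.789), where 7.27% of all genes were lower, and 1 of 9 target genes was higher, near the share of all genes.

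Genes with the pattern most like each of the 10 were ranked by Pearson's r of log2(CPM + 10) over 26 points, the 13 classes in both libraries, among 10586 genes. The points share 2 libraries, so r is a description. Thbs1 was closest to Gda (0.955), Sqor (0.950) and Dram1 (0.948). Tgfb1 was closest to Vrk2 (0.907), Taok3 (0.894) and Laptm5 (0.880), and Smad7 to Rfx7 (0.959), P2ry10 (0.949) and Srrm2 (0.924). For Tgfb2 the values of Adgrd1 (1.00), Pmp22 (0.999) and Sema3c (0.999) rest on the mesothelial points, and for Tgfbr3 the nearest was Pdlim4 (0.968). Itgav was closest to Gbp5 (0.935), Itgb8 to Ppp2r3a (0.938), Tgfb3 to Grb10 (0.945), Tgfbr2 to Paip2 (0.936) and Tgfbr1 to Acbd5 (0.812). With a pseudocount of 1 in place of 10 CPM, 1 of the 3 nearest genes was shared for Thbs1 and for Itgav and 0 for Tgfb3 and Itgb8.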

How the data were processed

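Single-cell RNA sequencing of liver cells was analysed from 2 libraries, 1 per group (replicate 1 of each). The deposited matrices hold UMI counts per gene and barcode from the authors' Cell Ranger run (version 7.1.0, per the file headers; build mm9, per the submitters' processing notes). The sources used here do not say whether intronic reads were counted.

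Barcodes with at least 500 UMIs, 300 genes and at most 20% mitochondrial UMIs were kept (10294 and 10459), and 379 and 416 were left out as doublets (Scrublet calls 278 and 331 barcodes, with clusters of at least 20% called barcodes). Both libraries were clustered together (scanpy 1.11.5, 2000 variable genes without the genes reported, 30 principal components, 20 neighbours, Leiden resolution 1 with leidenalg 0.10.2 and igraph 0.11.9, seed 1), again within subsets. Clusters took the best of 24 marker lists with a score of at least 1.5 and 3 markers. A margin of 1 was asked only of T cell subset lists over the T cell list, so t3 (1.98 against 1.82) stayed T cell-like. Cluster s7 was named cholangiocyte-like at 2.47 against 2.17 for the hepatocyte list. With Cd3d, Cd3e and Cd3g at 1000 CPM or more in sum, a lower score sufficed for T cell-like (c2, 1.49). Clusters with more markers of another class among their top 10 genes were left unnamed (m6, s6 and t6). These limits were set after the clusters had been seen. UMIs were summed per class and library and scaled to CPM. Intervals at 95% are exact Poisson (CPM), conditional binomial (ratios) and Clopper-Pearson (shares); a count of 0 was bounded at 3 UMIs. A gene was measured with 20 UMIs over both libraries, and past 1.5-fold counts as higher or lower. The size rule and the ratio intervals were tested on simulated data, drawn as independent Poisson counts from class sums. The intervals rest on the same assumption. The simulation left out the uneven spread of UMIs over cells, so it cannot show how the intervals hold where few cells carry a gene. Cells with many UMIs set most of the precision, since sums weigh each UMI alike.

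The 10 genes, the 7 pathway lists and the alternatives were chosen with earlier results of these data known. All 10 genes are named, with the 4 members of a list farthest from a ratio of 1 and the 3 most alike genes (at least 200 UMIs); not all of these are printed, and immediate early genes were added after values were seen. Software was Python 3.11.15, numpy 2.4.6, scipy 1.17.1, pandas 2.3.3 and matplotlib 3.10.9.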

Additional observations from a re-analysis of the deposited data

How the results depend on the processing

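No paired analysis was possible because each group has 1 library. Alternatives were a marker gate on each cell, each library clustered alone, a Leiden resolution of 2, doublets kept, a stricter cell filter (1000 UMIs, 10% mitochondrial), the reported genes allowed in clustering, each cell weighed the same, and the median of all genes set to 0. Chosen after seeing the data were the largest cluster alone, the 3 cells with most UMIs removed, and granulocytic cells as 1 class. Of 287 alternative log2 ratios 265 kept the sign of the reported value. Under all alternatives run, Thbs1 in monocyte-like cells stayed between 1.31 and 1.61, Itgb8 in regulatory T cell-like cells between 0.61 and 1.22, Itgb8 in mesothelial cell-like cells between -1.07 and -0.44, and Tgfb1 in monocyte-like cells between 0.12 and 0.32.

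Thbs1 in neutrophil-like cells (-0.60) was 0.28 with the gate, -0.96 with libraries alone, -0.25 with doublets kept and -0.00 as 1 granulocytic class. Thbs1 in granulocyte progenitor-like cells (0.45) was -0.00 as 1 class and 0.20 with the all-gene median at 0. Thbs1 in mesothelial cell-like cells (2.59) was 1.39 with cells weighed the same. Itgav in NK or ILC1-like cells (0.94) was 1.37 with libraries alone and 0.70 with the median at 0. Small ratios changed sign with the median at 0 in T cell-like cells (Tgfb1 -0.02, Tgfbr2 -0.08, Smad7 -0.04), with libraries alone (Tgfbr2 -0.00 and Smad7 -0.10 in T cell-like, Smad7 -0.07 in NK or ILC1-like cells) and in the largest B cell-like cluster (Smad7 -0.48, on 1412 and 17 UMIs). Apart from the changes of scale and class, the causes were not tested. With 7 stellate or fibroblast-like, 22 macrophage-like and 11 endothelial cell-like cells in the IPA library, no ratio was reported for these classes.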
